A study of Homo sapiens with 18 samples.

Results

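The genes described here encode the receptors for GABA and glutamate and the 3 enzymes that make or break down GABA. They were taken by symbol from the platform annotation: the GABA-A receptor subunits (GABR, without GABRP), the GABA-B subunits GABBR1 and GABBR2, the ionotropic glutamate receptor subunits (GRIA, GRIK, GRIN and GRID), the metabotropic glutamate receptors (GRM), and GAD1, GAD2 and ABAT. No measured value entered this choice. The rule found 43 genes among the 19775 that had a probe set of their own: 14 GABA-A subunits, 2 GABA-B subunits, 4 AMPA, 5 kainate and 7 NMDA receptor subunits, 1 delta subunit, 7 metabotropic receptors and the 3 enzymes.

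GABA and glutamate are the main fast transmitters of the brain. GABA-A receptors are chloride channels assembled from alpha, beta and other subunits, GABA-B receptors act through G proteins, AMPA, kainate and NMDA receptors are cation channels, and the GRM receptors act through G proteins. The enzymes GAD1 and GAD2 make GABA from glutamate, and ABAT starts its breakdown in mitochondria, in neurons and glia and also in liver. Receptors of both kinds are known from neural progenitors before synapses form, where GABA acts as a depolarising signal.

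Total RNA of the human embryonic stem (ES) cell line H9, and of cells grown from it, was measured on 18 1-colour arrays, 3 RNA pools for each of 6 groups. The groups were untreated ES cells, day 6 embryoid bodies (floating aggregates of differentiating ES cells), neuroepithelium (the sheet of neural progenitors) at day 10 and at day 17 without added factor, and neuroepithelium of the same days grown from day 6 on with bFGF (basic fibroblast growth factor, FGF2). The labels call the neuroepithelium primitive at day 10 and definitive at day 17, and they give the bFGF dose as 20 ug/ml at day 10 and 20 ng/ml at day 17, a difference in unit that the sources used here do not settle. All pools come from 1 cell line, and the labels do not say that the pools of a group came from separate cultures, and 2 of the 3 day 6 pools (pools 1 and 2) carry the same passage numbers, 27, 28 and 31, as ES pool 1, so that p-values measure the spread between these samples, which may be technical.

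Of the 43 genes, 35 are in the RefSeq promoter table (GRCh38.p14, 250 bases before to 50 after a transcription start). Their promoters were searched for the core letters of the RE1 element, to which the repressor REST binds and through which it holds neuronal genes silent in other cells: AGCACC and GGACAG separated by any 2 bases, on both strands. The match is a description and not a site of binding. It lies in 20 of the 35116 promoters of the table (0.057%) and in 2 of the 56 promoters of these genes, 1 of the 3 listed for the AMPA receptor subunit GRIA2 and 1 of the 2 listed for the GABA-making enzyme GAD2. Both are shown because they are the only promoters of these genes with a match. Capitals mark the match, which starts 227 bases before the start of GRIA2 (chr4:157220369-157220668, plus strand) and reads on the opposite strand, and 78 bases before that of GAD2 (chr10:26216122-26216421, plus strand).
GRIA2: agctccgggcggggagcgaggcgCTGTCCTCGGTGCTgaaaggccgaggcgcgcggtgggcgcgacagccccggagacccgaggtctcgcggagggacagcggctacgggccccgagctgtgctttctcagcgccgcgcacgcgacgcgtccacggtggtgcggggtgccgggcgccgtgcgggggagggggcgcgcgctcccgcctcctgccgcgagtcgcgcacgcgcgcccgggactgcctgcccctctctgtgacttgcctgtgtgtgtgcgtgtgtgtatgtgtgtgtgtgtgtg
GAD2: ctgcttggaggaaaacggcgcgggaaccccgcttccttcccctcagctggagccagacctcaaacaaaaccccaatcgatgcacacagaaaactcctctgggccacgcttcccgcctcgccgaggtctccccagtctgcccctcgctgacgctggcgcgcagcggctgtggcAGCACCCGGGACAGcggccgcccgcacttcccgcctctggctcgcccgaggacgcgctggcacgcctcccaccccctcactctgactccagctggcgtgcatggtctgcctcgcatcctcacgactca

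The labelled cell types were checked against marker lists. Of the 5 ES cell markers measured, NANOG, ZFP42 and PRDM14 had means under 50 at untreated day 17, and the summed signal was 20090 to 22290 in ES cells and 3636 to 5620 at untreated day 17. All 7 neuroepithelial markers had group means of 50 or more from day 6 on. Neuron markers (12 genes) summed to 4889 to 7026 in ES cells and 15920 to 18580 at untreated day 17, where only RBFOX3, a gene of mature neurons, had a group mean under 50. Of 7 astrocyte and oligodendrocyte markers, GFAP, S100B and AQP4 had means under 50 in every group, while between ES cells and untreated day 17 OLIG1 (14.3 to 83.4) and OLIG2 (14 to 73.1) were called higher and MBP (109.6 to 49.7) lower. SOX10 had means of 99.9 at day 6 and 101 at untreated day 10. Mesenchyme and muscle genes (6 measured) summed to 5064 to 6292 in ES cells, 1427 to 1511 at day 6, 7314 to 8370 at untreated day 10 and 13280 to 17210 at untreated day 17, and 5 of the 6 were called higher from day 6 to untreated day 10. Liver and yolk sac genes (5 measured) summed to 151.6 to 216.4 in ES cells and 1394 to 2580 at untreated day 17. The means of AFP (80.6 to 830), APOA2 (46.4 to 598) and TTR (20.6 to 389) rose between these groups, while ALB and APOA1 had means under 50 in every group. The pool 2 arrays of the 4 neuroepithelial groups stood apart: their median signal was 48.7 to 50.8, against 25.2 to 32.7 on the other 14 arrays, and their low signals were higher. Pool 2 of all 6 groups also had a higher ratio of 3' to 5' signal of ACTB, a sign of RNA or labelling quality, at 2.27 to 2.64 against 1.17 to 1.75 on the other 12 arrays. The same ratio of GAPDH did not show this: it lay between 0.876 and 1.24 on the 18 arrays and was lowest in pool 2 of each group. Among the genes described here, pool 2 was the highest of the 3 pools for 67.4% of the 43 genes at untreated day 17 against 47% of all genes.

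Most of the 43 genes had low signals in every group. The highest group mean was under 50 for 24 genes, between 50 and 100 for 12, between 100 and 200 for 5 (GABBR1, GABRA5, GAD1, GRIA1 and GRID1) and over 200 for ABAT and GRM3. On all 3 arrays of a group, 8 to 11 of the 43 genes (18.6% to 25.6%) lay above the array's median signal, against 52.1% to 55.6% of all genes. Signals of different probe sets are not amounts of RNA that can be set against each other, and the table carries no detection calls, so a low signal here has no bound. The 24 low genes are GABRA2, GABRA3, GABRA4, GABRA6, GABRB1, GABRD, GABRG1, GABRG3, GABRR1, GABRR2, GABRR3, GABBR2, GRIA2, GRIA4, GRIK1, GRIK4, GRIN1, GRIN2B, GRIN3A, GRIN3B, GRM2, GRM6, GRM7 and GRM8. No fold change is read from them. GRIN1, the obligatory subunit of NMDA receptors, had a highest group mean of 3.73 on the probe set used here.

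**Figure D1:**
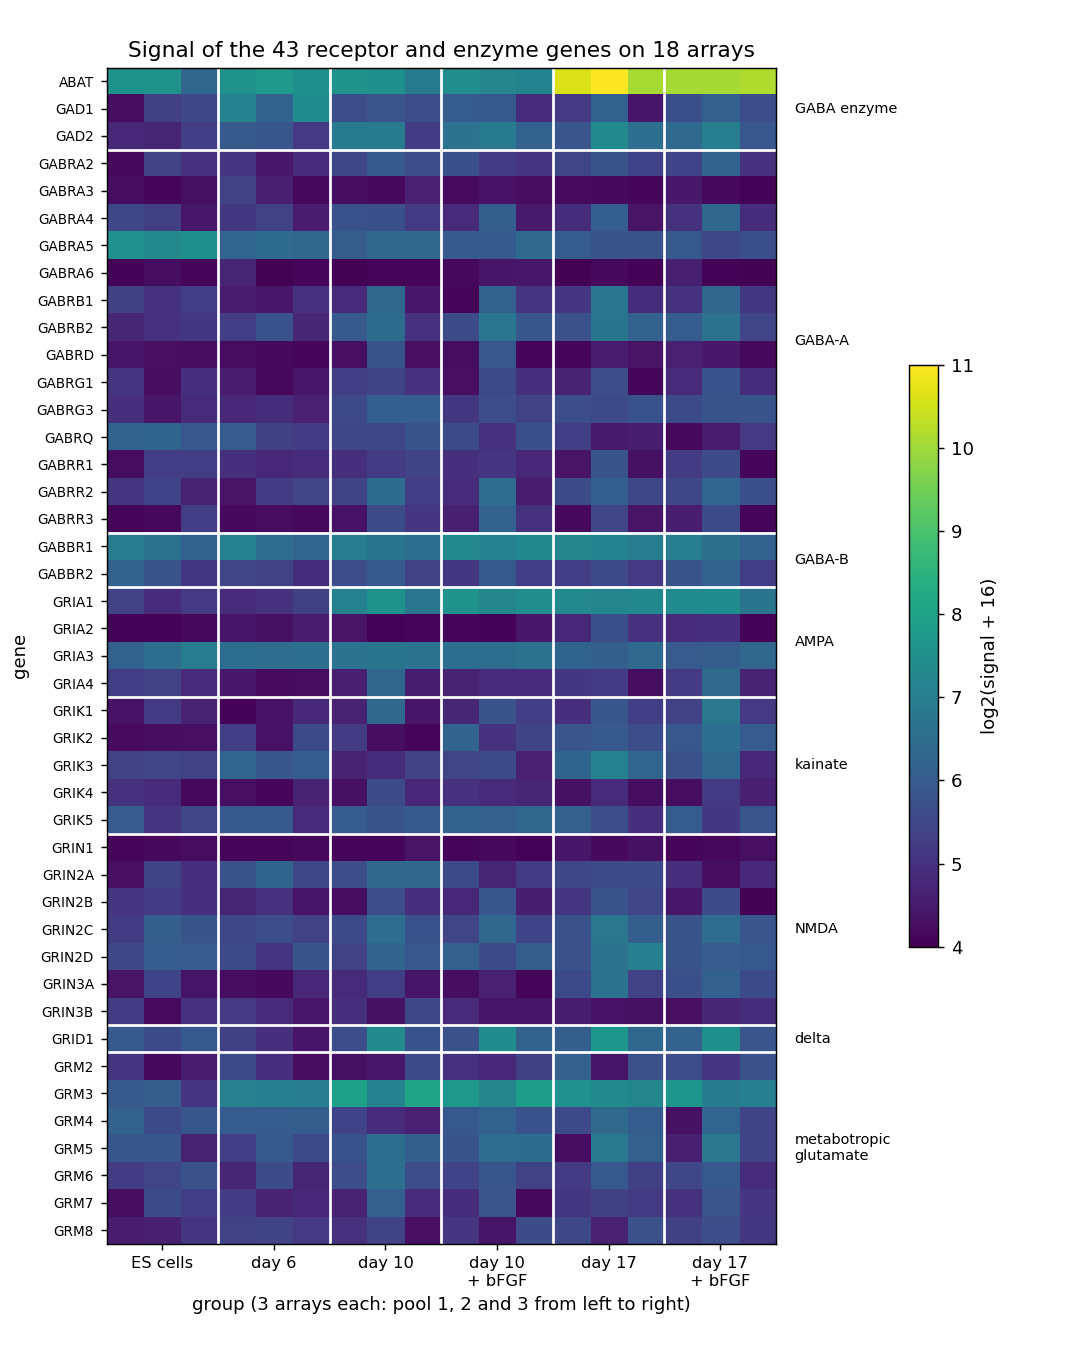
Signal of each of the 43 genes (rows, grouped by receptor class or enzyme) on each of the 18 arrays (columns, pools 1 to 3 within each group), drawn as log2(signal + 16). ABAT stands out at day 17 with and without bFGF, GABRA5 is brightest in ES cells, GRIA1 brightens from day 10 on, and many low genes are brighter in the middle column (pool 2) of the neuroepithelial groups.

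Changes between groups were tested with limma across all 19775 genes on the log2(signal + 16) scale, and a gene was called at a Benjamini-Hochberg adjusted p under 0.05. This scale understates the changes of low genes. From ES cells to day 6, 2 of the 43 genes were called higher and 1 lower, where 2.19% and 1.66% of all genes were called (3.85% in either direction). From day 6 to untreated day 10, 2 were called higher and 0 lower, beside 3.73% and 2.64% of all genes (6.37% together). From untreated day 10 to untreated day 17, 2 were called higher and 0 lower, beside 1.45% and 0.536% of all genes (1.99% together). Over the whole course, from ES cells to untreated day 17, 10 were called higher and 2 lower, beside 11.7% and 8.47% of all genes (20.2% together), a share of 27.9% of the 43 genes. An unadjusted p under 0.05 was reached by 11.6% of the 43 genes and 13% of all genes at the first of these steps, 23.3% and 18.2% at the next, 18.6% and 9.76% at the last, and 32.6% and 30.1% over the whole course. The median change of the 43 genes over the whole course was 0.36 on the log2 scale, and that of all genes was 0.09. Most of the 43 genes had low signals, and low signals were higher on the pool 2 array of untreated day 17. The part of this in the difference was not tested.

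Genes were also counted whose 2 groups of 3 arrays did not overlap. Between ES cells and day 6, 7 genes lay apart and higher and 5 apart and lower, beside 10.1% and 9.77% of all genes. Between day 6 and untreated day 10 the counts were 11 and 3, beside 13.6% and 9.67%. Between untreated day 10 and day 17 they were 6 and 4, beside 7.29% and 6.32%, and between ES cells and untreated day 17 they were 13 and 2, beside 19.3% and 14.3%. In all, 13 of the 43 genes (30.2%) were called in at least 1 of the 7 comparisons, beside 22.2% of all genes, and 30 in none, and 21 of these 30 had a highest group mean under 50.

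Among the enzymes of GABA, ABAT, the transaminase that begins GABA breakdown, had the largest log2 change of the 43 genes. Its signals were 178, 177 and 63.2 in the 3 ES pools, 173, 204 and 167 at day 6, and 172, 166 and 105 at untreated day 10. At untreated day 17 they were 1582, 2004 and 1063, so every day 17 array lay far above every earlier one. The ratio of the means was 10.5 between day 10 and day 17 (147.8 ± 37.1 and 1549.6 ± 471, SD, n = 3), a log2 change of 3.24 ± 0.31 (SE) with an adjusted p of 2.59e-05 by limma. Against ES cells the log2 change was 3.40 ± 0.31 (adjusted p 6.79e-07). A second probe set of ABAT showed the same step, from a mean of 70.7 at day 10 to 591 at day 17 (log2 change 2.87, adjusted p 0.000614 in a fit of all probe sets). The remaining one did not pass the test, at 0.66 with an adjusted p of 0.866.

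Over the same interval 3 of the 5 liver and yolk sac genes were called higher, AFP going from a mean of 96.0 to 830.0 and APOA2 from 100.1 to 598. ALB (18.6 to 23.8) and APOA1 (10.2 to 17.3) stayed low. Of the 12 neuron markers, 6 were called higher, STMN2 going from 216 to 2225. The part of these cells in the rise of ABAT was not tested, and in pooled RNA a change in the number of cells of a type cannot be told apart from a change in RNA per cell. With bFGF at day 17, ABAT had signals of 1057, 1049 and 1132 and AFP had 117, 143 and 122. Against untreated day 17, 1 of the 5 liver and yolk sac genes was called lower (median log2 change -1.48). Of the 12 neuron markers 0 were called (median -0.33). How these differences relate to ABAT was not tested. ALDH5A1, the next enzyme of GABA breakdown, rose earlier, from a mean of 60.1 at day 6 to 187 at day 10 (log2 change 1.42 ± 0.19, adjusted p 0.000187) and to 358 at day 17 (0.87 ± 0.19, adjusted p 0.0255).

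GAD1, the GABA-making enzyme found throughout the cell, was highest at day 6. Its signals were 3.29, 23.9 and 29.6 in ES cells and 125, 58.8 and 149 at day 6, groups that did not overlap, a log2 change of 1.88 ± 0.44 (adjusted p 0.021). At untreated day 10 they were 35.1, 41.2 and 35, lower than on every day 6 array, although this difference did not pass the test (log2 change -1.18 ± 0.44, adjusted p 0.143). All 3 probe sets of GAD1 were called higher at day 6. They parted at day 17: the probe set used here had a mean of 27.4, while another had 60.3, 140.6 and 99.6 on its 3 arrays and was called higher against day 10 (log2 change 1.81, adjusted p 0.0344) and against ES cells (2.30, adjusted p 0.000569). The rise at day 6 was not called without ES pool 1 or without day 6 pool 1 or 3, nor with a pseudocount of 1 (adjusted p up to 0.122).

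GAD2, the GABA-making enzyme tied to synaptic vesicles, had signals of 11.5, 10.5 and 22.3 in ES cells. They were 47.2, 43.1 and 19.5 at day 6, 105, 101 and 21.7 at untreated day 10, and 41.8, 143 and 77.9 at untreated day 17. Only the comparison of day 17 with ES cells was called (log2 change 1.65 ± 0.45, adjusted p 0.014), and the arrays of these groups did not overlap. That call rests on the day 17 pool 2 array, whose median signal stood apart: without it the log2 change was 1.28 with an adjusted p of 0.0787. None of the 4 other GAD2 probe sets was called in this comparison.

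**Figure D2:**
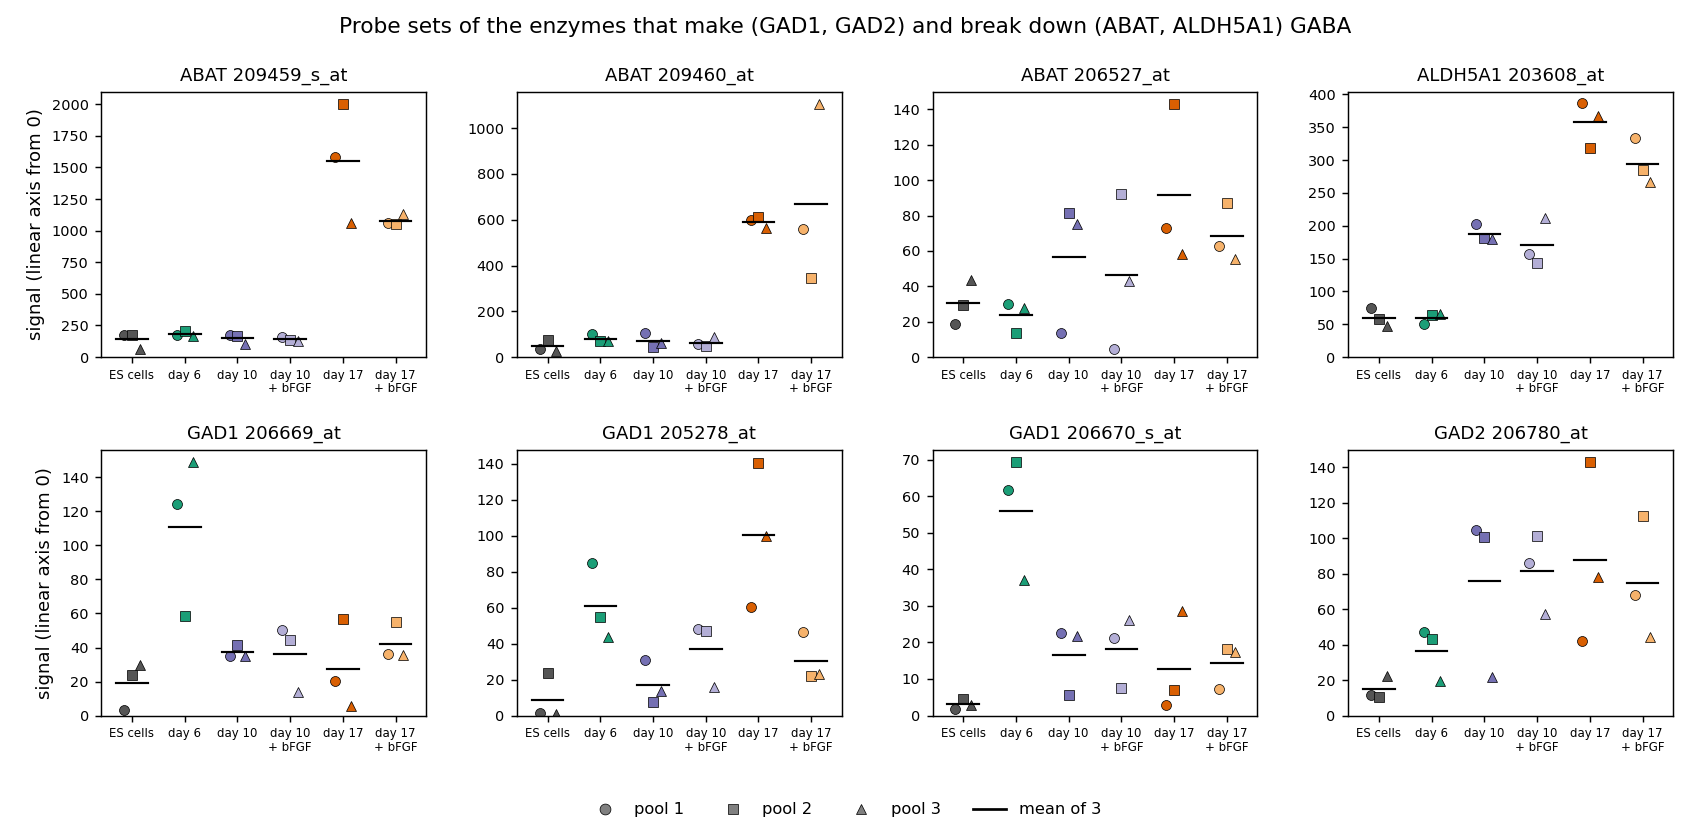
Signal (linear axis from 0) of 3 ABAT, 1 ALDH5A1, 3 GAD1 and 1 GAD2 probe sets on each array, with a symbol for each pool and a bar at the mean of 3. Both upper ABAT probe sets step up at day 17 with and without bFGF, ALDH5A1 is already raised at day 10, and the 3 GAD1 probe sets share the rise at day 6 but not the level at day 17.

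Of the 14 GABA-A subunits, GABRA5 was the one with the firmest change, and it fell. GABRA5 forms an alpha subunit of extrasynaptic receptors. Its signals were 170.4, 141 and 165 in ES cells and 61.8, 71.7 and 65.8 at day 6, a fall of the mean from 159 to 66.5 (log2 change -1.08 ± 0.19, adjusted p 0.00217). Every ES array lay above every day 6 array. By untreated day 17 the signals were 49.5, 39.3 and 39.6 (log2 change against ES cells -1.57 ± 0.19, adjusted p 1.09e-05). Its 2 other probe sets did not pass the test, with log2 changes of -0.71 and -0.36 from ES cells to day 17.

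GABRQ, the theta subunit, also fell over the course, from 58.9, 60.7 and 43.9 in ES cells to 23.1, 6.57 and 8.27 at untreated day 17 (log2 change -1.34 ± 0.30, adjusted p 0.00377). The intermediate groups lay between these levels, with means of 31.3 at day 6 and 33.1 at untreated day 10. The fall was not called without pool 2 of every group, and the other GABRQ probe set changed by 0.33 with an adjusted p of 0.70.

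GABRB2, a beta subunit of the common adult receptors, rose from 11.1, 16 and 19.1 in ES cells to 37.3, 90.1 and 57.1 at untreated day 17 (log2 change 1.26 ± 0.41, adjusted p 0.04). The groups did not overlap, and a second probe set rose from a mean of 5.10 to 68.7 (log2 change 1.99, adjusted p 2.65e-05). The remaining one was not called (log2 change 0.51, adjusted p 0.382). The call of the probe set used here was lost when any 1 of 7 arrays was left out, including each ES array and day 17 pools 2 and 3, with adjusted p up to 0.163. It was also lost with a pseudocount of 64, without the 4 neuroepithelial pool 2 arrays and without pool 2 of every group (adjusted p up to 0.0777). GABRG3, a gamma subunit, was called higher at untreated day 10 than at day 6 (adjusted p 0.00284) and at day 17 than in ES cells (adjusted p 0.00439), with signals of 12, 14.1 and 8.78 at day 6, 31.1, 52.6 and 52.3 at day 10 and 34.7, 31.7 and 38.8 at day 17. All its group means were under 50, and its other probe set did not show this. The other 10 GABA-A subunits, among them GABRA2, GABRA3, GABRA4, GABRA6, GABRB1, GABRD and the rho subunits, were called in no comparison and had group means under 50.

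Of the GABA-B subunits, GABBR1, which binds the ligand, had signals of 110.0, 83.1 and 56.2 in ES cells, 121, 74.6 and 61.8 at day 6, 108, 89.4 and 78.0 at untreated day 10 and 130.3, 125 and 107 at untreated day 17. On this probe set the groups overlapped at each step and no comparison was called. With the pool number as a block, its higher signals at untreated day 17 than in ES cells were called. The other GABBR1 probe set had means of 36.0 in ES cells, 45.7 at day 6, 89.8 at untreated day 10 and 66.9 at untreated day 17. There every untreated day 10 array lay above every day 6 array, and every untreated day 17 array above every ES array. GABBR2, which couples the receptor to its G protein, had a highest group mean of 40.4.

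Among AMPA receptor subunits, GRIA1 rose between day 6 and day 10. Its signals were 25, 12.8 and 19.5 in ES cells and 12.9, 16.3 and 23.7 at day 6, and then 118, 177 and 91.2 at untreated day 10 and 140.3, 131 and 137 at untreated day 17. Every day 10 and day 17 array lay above every ES and day 6 array. The mean rose from 17.7 ± 5.52 to 129 ± 44.0 (SD, n = 3) between day 6 and day 10, a ratio of 7.30 and a log2 change of 2.08 ± 0.25 (adjusted p 5.17e-05), and then changed by 0.11 ± 0.25 to day 17 (adjusted p 0.974). A second GRIA1 probe set was also called higher at day 10 (log2 change 1.39, adjusted p 0.0257). Over the same interval 5 of 6 mesenchyme and muscle genes were called higher, COL1A1 going from a mean of 327 to 1874 and ACTA2 from 148 to 1935. So were 5 of 7 neuroepithelial markers, SOX1 going from 56.2 to 612 and FABP7 from 769 to 6654. Of 12 neuron markers, 3 were called higher and 1 lower. The part of these cells in the rise of GRIA1 was not tested.

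GRIA2, the subunit that makes AMPA receptors impermeable to calcium and one of the promoters printed above, stayed low throughout. Its signals were 0.69, 0.68 and 1.81 in ES cells and 11.5, 35.9 and 15.9 at untreated day 17, called at an adjusted p of 0.00689. A second probe set had 0.48, 1.66 and 1.30 in ES cells and 18.9, 36.1 and 34.0 at untreated day 17 (adjusted p 0.000214), and the remaining one had means of 12.3 and 7.86. No fold is given at these levels. GRIA3 was near 80 in ES cells (55.9, 76.7 and 109) and 60, 53.9 and 68.3 at untreated day 17, with no call, though another of its probe sets was called higher at day 17 than in ES cells (log2 change 1.13, adjusted p 0.0211). GRIA4 was low in all groups.

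REST itself, the repressor that reads the RE1 element, had signals of 639.7, 707 and 312 in ES cells and 431, 426 and 247 at untreated day 17. These overlapped, and the change was -0.53 ± 0.35 on the log2 scale with an adjusted p of 0.361.

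Among kainate receptor subunits, GRIK3 had its lowest signals at day 10 and its highest at day 17. Its signals were 25.6, 28.4 and 25.2 in ES cells, 61.6, 42.2 and 50.1 at day 6, 9.56, 14 and 25 at untreated day 10 and 60.2, 118 and 62.5 at untreated day 17. Neighbouring groups did not overlap at any of the 3 steps. The test called the last step (log2 change 1.56 ± 0.35, adjusted p 0.0277) and the change from ES cells to day 17 (1.13 ± 0.35, adjusted p 0.0297), while the lower signals at day 10 than at day 6 had an adjusted p of 0.0845. The last step was lost without day 10 pool 1 or 2 or without any 1 of the day 17 pools (adjusted p up to 0.136), and the other GRIK3 probe set was not called (log2 change 0.06, adjusted p 0.994). The call from ES cells to day 17 was lost without any 1 of the ES pools or day 17 pool 2 (adjusted p up to 0.142). Both were also lost with a pseudocount of 1, with the mean of probe sets, without the 4 neuroepithelial pool 2 arrays and without pool 2 of every group. GRIK2 had signals of 2.58, 3.32 and 3.35 in ES cells and 42.0, 45.6 and 34.8 at untreated day 17 and was called (adjusted p 0.00411). The ES signals are too low for a size to be read: the log2 change was 1.57 here, 0.64 with a pseudocount of 64 and 3.35 with one of 1. None of its 5 other probe sets was called. GRIK5, a subunit that needs a partner to form a channel, had group means between 31.6 and 59.2 with no call, and GRIK1 and GRIK4 were low.

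NMDA receptor subunits gave 1 call among 7 genes, for GRIN3A between ES cells and untreated day 17 (adjusted p 0.0344). Its signals were 4.85, 26.5 and 5.15 in ES cells and 31.7, 81.1 and 25 at day 17, which overlap, and the call was lost without ES pool 1 or 3 or day 17 pool 2 (adjusted p up to 0.184). GRIN2A, the subunit of mature receptors, had higher signals at day 6 (39.8, 60.1 and 29) than in ES cells (3.52, 26.9 and 14.6), without overlap and with an adjusted p of 0.123. Its 2 other probe sets had means of 11.1 and 15.3 in ES cells and 45.1 and 42.1 at day 6. With the mean of its probe sets GRIN2A was called higher at day 6. GRIN2D, a subunit of the embryonic brain, had signals of 30.1, 50.1 and 48.7 in ES cells and 37.0, 85.3 and 114 at untreated day 17, which overlap, and was not called. GRIN1, without which no NMDA receptor forms, had signals between 0.87 and 5.35 on the 18 arrays. Its 4 other probe sets end in _x_at, which marks probes that may bind other transcripts, and were brighter, with group means up to 53.4. GRID1, the delta subunit, had signals of 54.0, 189 and 65.6 at untreated day 17 and 35.2, 143 and 38.3 at untreated day 10, and 152 and 163 on the bFGF pool 2 arrays. The pool 2 array was the highest in each of these groups, and GRID1 was not called. With the pool number as a block, and with a term for the 4 neuroepithelial pool 2 arrays, its higher signals at untreated day 10 than at day 6 were called. In this comparison same-numbered arrays were not taken as pairs (lowest correlation 0.0749), which limits the fit with the block.

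Of the metabotropic glutamate receptors, GRM3, which lowers cyclic AMP and is a receptor of glia and progenitors as well as neurons, rose at day 6 and stayed up. Its signals were 46.2, 50.3 and 17.8 in ES cells, 117, 114 and 108 at day 6, 237, 123 and 258 at untreated day 10 and 172, 143 and 132 at untreated day 17. Every later array lay above every ES array. The log2 change was 1.31 ± 0.31 at day 6 (adjusted p 0.024) and 1.66 ± 0.31 from ES cells to day 17 (adjusted p 0.000923), and the higher signals at day 10 than at day 6 had an adjusted p of 0.22. The day 6 call was lost without ES pool 3 or any 1 of the day 6 pools (adjusted p up to 0.133). GRM3 has no other probe set to set beside this one. GRM5, a receptor that raises calcium, had 3.33, 97.3 and 54.8 at untreated day 17 and was not called. GRM4 had 49.4, 49.0 and 50.4 at day 6, 26.6, 13.7 and 9.15 at untreated day 10 and 30.5, 70.2 and 50.2 at untreated day 17, with no call. GRM2, GRM6, GRM7 and GRM8 had group means under 50.

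**Figure D3:**
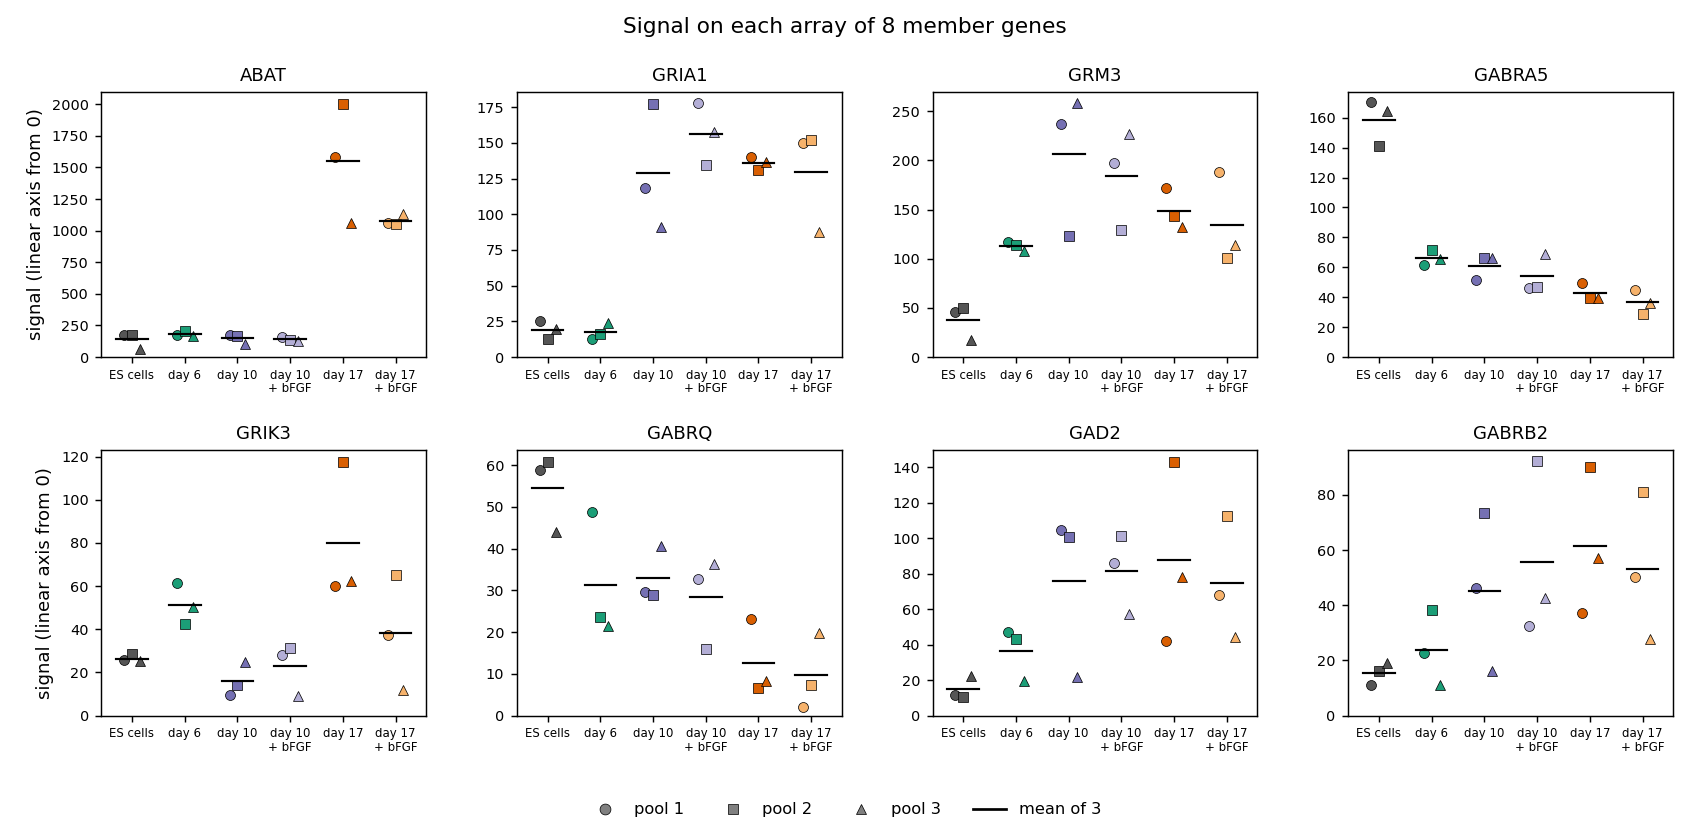
Signal (linear axis from 0) of 8 genes on each array, with a symbol for each pool and a bar at the mean of 3. The steps of ABAT at day 17, of GRIA1 at day 10 and of GABRA5 at day 6 separate all arrays before from all arrays after, while the higher means of GRIK3, GAD2 and GABRB2 at day 17 are led by pool 2.

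Addition of bFGF called 0 of the 43 genes on either day by limma, beside 0.086% of all genes at day 10 and 0.339% at day 17. At day 10 an unadjusted p under 0.05 was reached by 4 genes, GABRG3, GRIK2, GRIN2A and GRM4, and at day 17 by 2, GRIK3 and GRIN2A. These are 9.3% and 4.65% of the 43 genes, beside 3.1% and 4.96% of all genes, so that the day 17 count is at the background. The arrays lay apart and higher with bFGF for 4 genes and apart and lower for 2 at day 10, beside 3.14% and 2.97% of all genes, and for 0 and 1 at day 17, beside 3.96% and 5.07%. The gene common to both days was GRIN2A, singled out after its values were seen. Its signals were 34.2, 65.8 and 63.3 without and 31.7, 10.5 and 21.3 with bFGF at day 10, and 28.6, 32.7 and 32.3 without and 15.6, 2.99 and 11.4 with bFGF at day 17. The log2 differences were -0.93 ± 0.31 (adjusted p 1) and -0.89 ± 0.31 (adjusted p 0.631). The 2 other probe sets of GRIN2A had means of 28.4 and 17.6 without and 23.1 and 19.1 with bFGF at day 10, and of 20.4 and 34.4 without and 21.7 and 14.9 with bFGF at day 17.

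ABAT at day 17 was 1549.6 ± 471 without and 1079.6 ± 45.6 with bFGF (SD, n = 3), which overlap (log2 difference -0.47 ± 0.31, adjusted p 1). GRIA1 was 136 ± 4.65 and 129.9 ± 36.6 there, and GRM3 was 149 ± 20.6 and 134 ± 47.0. GRIK3 was 60.2, 118 and 62.5 without and 37.5, 65.1 and 12 with bFGF at day 17 (-0.91 ± 0.35, adjusted p 0.755). The difference between the bFGF effects of both days was called for 0 of the 43 genes and 0% of all genes, with an unadjusted p under 0.05 for 3 of the 43 genes (6.98%), GABBR1, GRIK3 and GRM4, beside 3.19% of all genes. GABBR1 was 141, 122 and 137 with bFGF at day 10, above all 3 untreated arrays, and 111, 80.7 and 56.6 with bFGF at day 17. The difference of its effects was -0.99 ± 0.37 on the log2 scale (unadjusted p 0.0158, adjusted p 1). The other GABBR1 probe set went the opposite way on both days. Its means were 89.8 without and 60.2 with bFGF at day 10, and 66.9 without and 78.9 with bFGF at day 17.

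**Figure D4:**
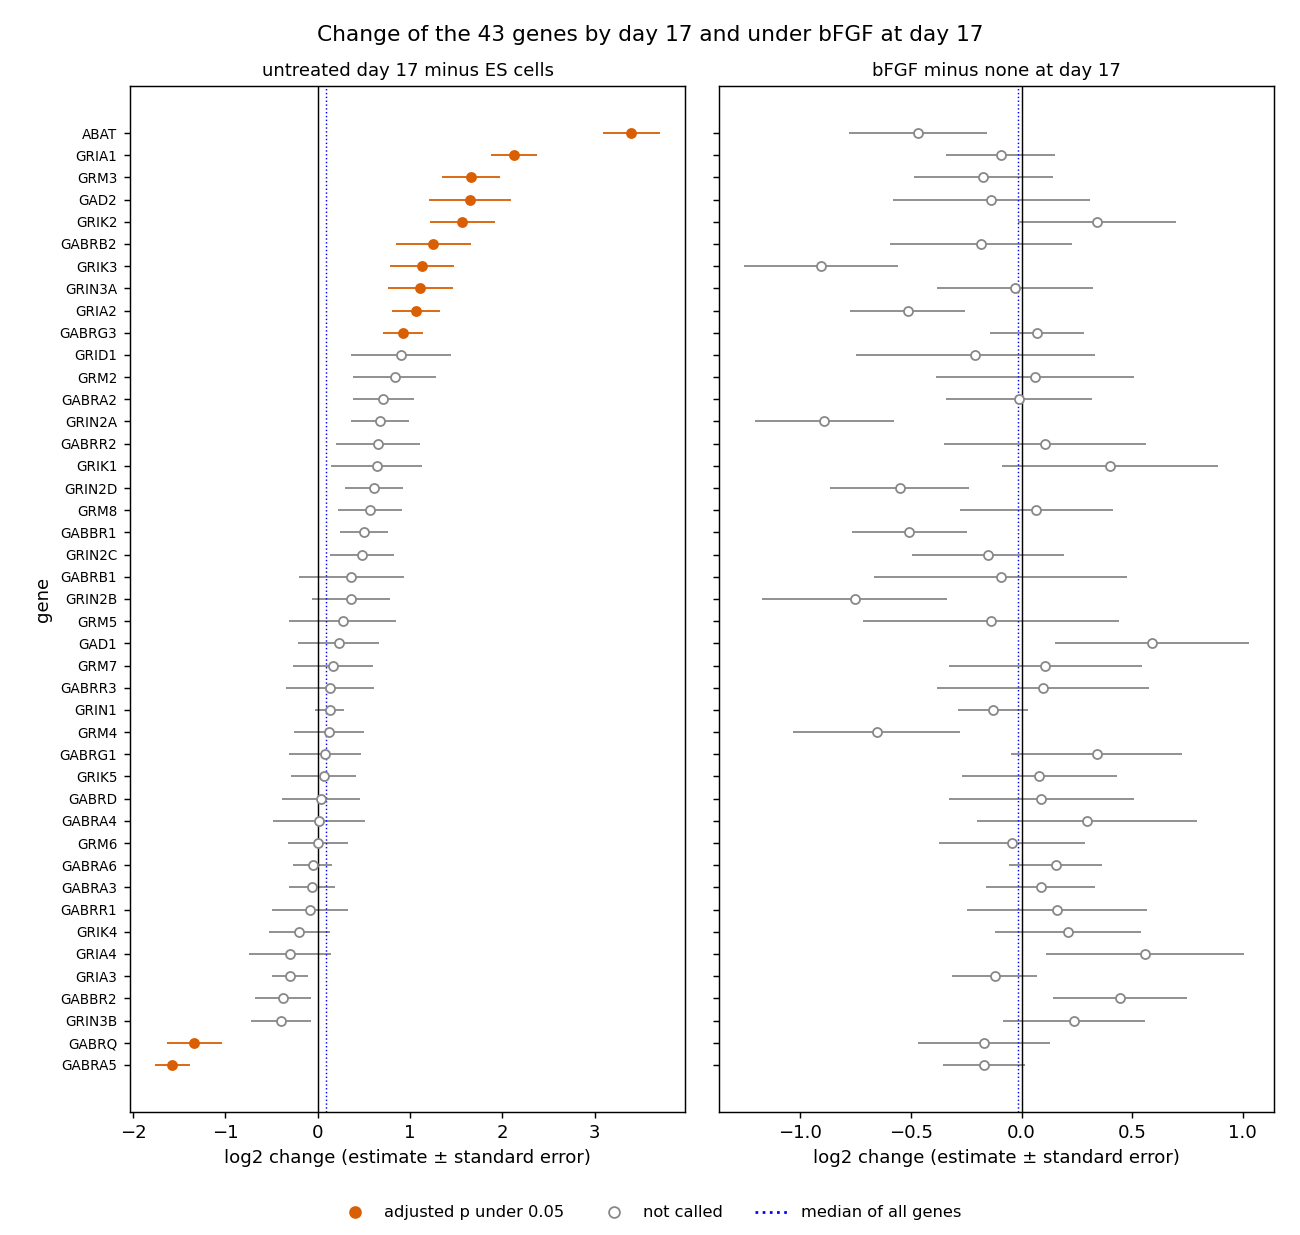
Log2 change with its standard error for each of the 43 genes, between ES cells and untreated day 17 (left) and with bFGF against none at day 17 (right), where filled points have an adjusted p under 0.05 and the dotted line is the median of all genes. On the left 10 genes are called higher and 2, GABRQ and GABRA5, lower, and on the right 0 are called.

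The genes that move, load and recycle both transmitters were followed as a fixed list, of which 22 of 26 were measured. The shares called at the first steps, 4.55% each, stand beside 3.85% and 6.37% of all genes. From ES cells to day 6, 0 rose and 1 fell, SLC1A1, a neuronal glutamate transporter, going from 233 to 97.5 (log2 change -1.12, adjusted p 0.0158). From day 6 to untreated day 10, 1 rose, ALDH5A1, and 0 fell. From untreated day 10 to day 17, 4 rose and 0 fell (18.2% of the 22, beside 1.99% of all genes). Besides ALDH5A1 these were the vesicular glutamate transporter SLC17A6 (8.91, 28.8 and 3.42 at day 10, 95.9, 160.2 and 82.3 at day 17, adjusted p 0.00184), the vesicular GABA transporter SLC32A1 (6.36, 8.25 and 2.12, then 32.8, 65.8 and 72.8, adjusted p 0.031) and the glial glutamate transporter SLC1A2 (106, 111 and 43.7, then 267, 325 and 181, adjusted p 0.0287). In each of these 3 the groups did not overlap. The other vesicular glutamate transporters, SLC17A7 (48.8 to 60.1) and SLC17A8 (6.45 to 6.13), were not called. Over the whole course 5 rose, the fifth being the glial transporter SLC1A3 (79.3 to 387, log2 change 2.14), and 1 fell, SLC1A1 (27.3% of the list, beside 20.2% of all genes). The list's median log2 change over the course was 0.35.

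Transcription factors of GABA neurons in the ventral forebrain also rose between day 10 and day 17. DLX1 went from 25.2, 15.7 and 36.0 at untreated day 10 to 685, 1001 and 471 at day 17, and DLX2 from 2.09, 84.9 and 49.6 to 678, 812 and 839 (adjusted p 0.000173 and 0.000303). DLX5 had a mean of 11.4 in ES cells, 223 at day 6, 62.0 at day 10 and 176 at day 17, and was called higher at day 6 and lower at day 10. Of the 5 genes of this list, 2 were called higher at day 6, 1 lower at day 10 and 3 higher at day 17. How the GAD genes relate to them was not tested.

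The scaffolds, adhesion molecules and auxiliary subunits that hold receptors at synapses formed a second list, of which 46 of 51 were measured. From ES cells to day 6, 1 rose (NETO2, a kainate receptor auxiliary subunit, 303 to 659) and 2 fell (its relative NETO1, 94.1 to 18.7, and the AMPA receptor clustering protein NPTX1, 197 to 32.3). From day 6 to untreated day 10, 4 rose and 2 fell. NLGN1, the adhesion molecule of excitatory synapses, rose from 49.6, 67.6 and 47.5 to 439.6, 494 and 421 (log2 change 2.73 ± 0.17, adjusted p 1.16e-07). At this step GRIA1, 5 of 6 mesenchyme and muscle genes and 5 of 7 neuroepithelial markers were also called higher. NETO2, HOMER2 and KCTD12 rose by 1.19, 1.19 and 0.93, and CBLN1, a ligand of delta receptors, and SHANK2 fell by 2.05 and 1.26. From day 10 to day 17, KCTD12, an auxiliary subunit of GABA-B receptors, rose (188 to 413) and NLGN1 fell (452 to 268). Over the whole course 10 rose and 6 fell. The shares of the list called were 6.52% at day 6, 13% at day 10, 4.35% at day 17 and 34.8% over the course, beside 3.85%, 6.37%, 1.99% and 20.2% of all genes. GPHN, the anchor of GABA-A receptors, was among those that rose (136 to 257, log2 change 0.85, adjusted p 0.0115). HOMER2, which ties metabotropic glutamate receptors to calcium stores, was the 1 gene of this list and of the transporter list called under bFGF, at day 17: 258, 403 and 306 without and 100.5, 116 and 54.3 with bFGF (log2 difference -1.70 ± 0.32, adjusted p 0.0314).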

How the data were processed

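Total RNA pools were measured on 1-colour arrays with 54675 probe sets. The deposited table holds 1 linear intensity per probe set and array. It was already scaled by the authors, judged from the values: with 2% trimmed from each end, the means of the 18 arrays lie between 150.016 and 150.026. How probe sets were summarised is not given in the sources used here. The number of arrays limits the precision. Of the probe sets, 41097 name 1 gene, 1801 several and 11777 are unnamed here. Probe sets ending in _x_at were dropped where another existed and the one with the highest mean log2 was kept, giving 19775 genes (19738 in the current gene table). The 43 genes have 111 probe sets: 10 genes have 1 and 33 have several.

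The authors' intensities were analysed as log2(signal + 16) with limma 3.58.1 in R 4.3.3: 1 mean per group over all 18 arrays, eBayes, and two-sided tests adjusted by Benjamini-Hochberg over all genes, in 7 comparisons. Other probe sets of a gene were tested in a second fit of all probe sets naming 1 gene. The scripts were tested on simulated data. The genes and lists were chosen with earlier results of these data known. By a rule, values per array are given for genes called in at least 1 comparison and for the 12 with the highest group mean, and of the other lists for called genes and up to 4 more; other genes named with values were chosen after their values were seen.

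Groups and pool numbers come from titles and descriptions. ES pool 1 has no number in its labels and was numbered by sample order. For 1 day 10 pool with bFGF the title says 2 and the description 1, and the title was taken. The numbers were taken to pair the arrays of 2 groups where, across genes, the deviations of same-numbered arrays from their group means correlated over 0.1 in every pair. This held in the 5 other comparisons of 2 groups (lowest 0.156) but not for untreated day 10 against day 6 (lowest 0.0749). The pool number as a block is an alternative. The others are quantile scaling, a pseudocount of 1 or of 64, only the upper 60% of genes by mean, a fit of only the groups compared, probe sets averaged per gene, a trended and robust prior, fits without or with a term for the 4 neuroepithelial pool 2 arrays, without pool 2, and without each array. Promoters are from RefSeq, GRCh38.p14.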

Additional observations from a re-analysis of the deposited data

How the results depend on the processing

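Of the 19 called changes of the 43 genes, 7 kept their call under every setting and every left-out array: ABAT (both), GABRA5 (both), GRIA1 (both) and GRM3 over the whole course. None of the 19 changed sign there. The count at day 6 was 3. It ran from 1 to 3 when arrays were left out (1 without day 6 pool 1 or pool 3). Of all genes, 2.34% to 3.92% were called in these fits. With a pseudocount of 1 the count was 2, beside 3.3% of all genes. With the mean of probe sets it was 4 (GRIN2A gained), beside 3% of all genes. A term for the 4 pool 2 arrays also gave 4 (GRID1 gained), beside 5.92%. From day 6 to untreated day 10 the count was 2, and became 5 with quantile scaling, 1 among the upper 60% of genes (16 of the 43 tested), 5 with the pool number as a replicate block and 7 with a term for the 4 pool 2 arrays. Of all genes tested, 6.17%, 12.4%, 12.7% and 9.02% were called under these settings in turn, beside 6.37% in the main fit. The count was 3 with the mean of probe sets (GABRB2, GAD1 and GRIA1, without GABRG3), beside 5.55% of all genes. The calls gained under the other settings were GAD1, GRIK3 and GRM4 with quantile scaling, GRID1, GRIK3 and GRM6 with the block, and GAD1, GRID1, GRIK3, GRM3 and GRM4 with the term. From day 10 to day 17 the count was 2. It was 1 with a pseudocount of 1, with the compared groups alone, without the 4 pool 2 arrays and without pool 2. Of all genes, 1.14%, 0.172%, 1.16% and 0.92% were called there in turn, beside 1.99% in the main fit. GRIA2 was gained with the mean of probe sets (1.55% of all genes), where GRIK3 was lost, and with the term (3.26%). With arrays left out the count was 1 to 3, beside 1.04% to 2.07% of all genes. It was 1 without day 10 pool 2 or without any 1 of the untreated day 17 pools, and 3 without pool 3 of day 17 with bFGF. Over the whole course the count was 12. It was 7 among the upper 60% of genes (16 of the 43 tested), with the mean of probe sets and without pool 2. Of all genes tested, 35.1%, 17.7% and 17.7% were called there in turn, beside 20.2% in the main fit. With arrays left out the count was 9 to 13, beside 15.8% to 20.9% of all genes. The block gave 3, 2 and 13 in the other time comparisons, beside 7.35%, 3.81% and 29.4% of all genes. It gave 0 under bFGF, beside 0.172% at day 10 and 0.607% at day 17, and otherwise changed no call. The causes were not tested.

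Other probe sets had the opposite sign for 5 of the 17 called changes that have one: GABRG3 at day 10 (-0.15), and over the whole course GABRQ (0.33), GAD2 (-0.28 and -0.25), GRIA2 (-0.23) and GRIK2 (-0.19), none called. For 7 of the 17 another probe set was called in the same direction. The higher low signals of the pool 2 arrays and the signals under 50 of 24 of the 43 genes limit what these arrays can show.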
